A study of Manis javanica with 3 samples.

Results

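The genes described here are those of amino acid breakdown and the urea cycle in the Malayan pangolin (*Manis javanica*), an ant- and termite-eating mammal. They were taken from a list of 50 gene symbols, matched to the symbol of each gene's Swiss-Prot entry or, where it had none, of its KEGG entry. CPS1 was matched by the enzyme name of its entry in the non-redundant protein database (NR). This found 47 of the 50 symbols as 57 genes among the 24220 genes of the expression tables. The symbols SDSL, GPT2 and CSAD gave no gene by this rule, and 8 symbols had more than 1 gene, 18 genes in all.

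The study sequenced poly(A) RNA of liver, salivary glands and small intestine to describe the digestive system of this species. All 3 libraries came from 1 adult female, a wild animal that died during rescue with ants in its stomach, with no treatment. There was 1 library per tissue, so no difference below has a replicate check, no p-value is given, and each interval covers counting error only. Tissue, dissection and library preparation cannot be told apart in this design.

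In the breakdown of an amino acid its amino group is removed, often by a transaminase, and the carbon skeleton is burned or turned into glucose or fat. Some pathways begin with another step, such as ring opening for tryptophan or activation for methionine. The nitrogen ends up as ammonia and aspartate, which the mammalian liver turns into urea through CPS1, OTC, ASS1, ASL and ARG1. The liver carries most of the catabolic enzymes, whereas the branched-chain amino acids are mainly transaminated outside it, and glutamine carries nitrogen between organs.

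The libraries held 8318686 to 14568778 counted fragments. The labels were checked against marker genes of cell types. In the liver library all 11 genes of 10 hepatocyte marker symbols had an FPKM (fragments per kilobase of transcript, on a per-million scale of mapped fragments) above 1, with a summed FPKM of 24458 against 58.3 in the salivary gland library and 142 in that labelled small intestine. In the library labelled small intestine, 9 of 13 gastric marker genes were above 1 and the summed FPKM of the 13 was 63640. Most of it came from CHIA (gene3954, 43108) and the PGC genes gene7091 (9427) and gene26479 (7953). Below 1 were GIF (0.872) and the LIPF genes (at most 0.539). CHIA gene13097 (3.30) is named chitotriosidase-1 in NR. The 17 enterocyte marker genes summed to 31.2 there, 30.3 in the salivary glands and 145 in the liver. Of the 145, 114 came from gene10946, which has the SI symbol but is named maltase-glucoamylase in NR. The SI gene that NR names sucrase-isomaltase (gene7608) had 0.0421 in the library labelled small intestine and 0 in the others. Most of the 31.2 came from VIL1 (gene24763) at 24.0, which had 25.7 in the salivary glands and 21.2 in the liver. FABP2 and both genes with the LCT symbol, of which NR names gene4436 lactase-like, were at 0 in every library. SLC5A1 (gene6542, 1.94) and SLC15A1 (0.623) were highest in the library labelled small intestine, at low values. The 6 smooth muscle marker genes summed to an FPKM of 2049 there, 105 in the salivary glands and 31.1 in the liver. The library is therefore called "labelled small intestine" below, and the part of the dissected region in the results was not tested. In the salivary gland library the 5 marker genes found, of 3 of 8 listed symbols, summed to 122, mainly AQP5 (94.3) and PIP (28.0). Of the genes with the LPO symbol, gene8992, which NR names lactoperoxidase, had 0.175 there. The other LPO genes, named eosinophil peroxidase (gene8990) and myeloperoxidase (gene8993) in NR, were at 0 there.

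The liver library held far more of the amino acid transcripts than the others. The 57 genes took 3.47% of its fragments (95% Wilson interval 3.465% to 3.484%), 1.45% of the salivary gland fragments (1.438% to 1.454%) and 0.359% of those of the labelled small intestine (0.355% to 0.362%). Their median FPKM was 45.9 in the liver, 0.651 in the salivary glands and 2.98 in the labelled small intestine, where the medians of all genes were 1.89, 1.76 and 2.16. An FPKM above 1 was found for 52 of the 57 genes in the liver (57.0% of all genes were above 1), for 28 in the salivary glands (56.3% of all genes) and for 32 in the labelled small intestine (59.4% of all genes). None of the 57 had a count of 0 in the liver, against 11 in the salivary glands and 9 in the labelled small intestine. Of all 24220 genes, 5013, 5506 and 4985 had a count of 0 in these libraries. The zeros outside the liver were thus no more common in the list than over all genes. In the liver 21 of the genes reached an FPKM of 100, against 4 in the salivary glands and 3 in the labelled small intestine. A gene at an FPKM of 97.6 ranked 690th of all genes in the liver, so fewer than 690 reached 100 there. Of the 100 genes of highest FPKM in each library, 7 were members in the liver, 2 in the salivary glands and 1 in the labelled small intestine.

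**Figure D1:**
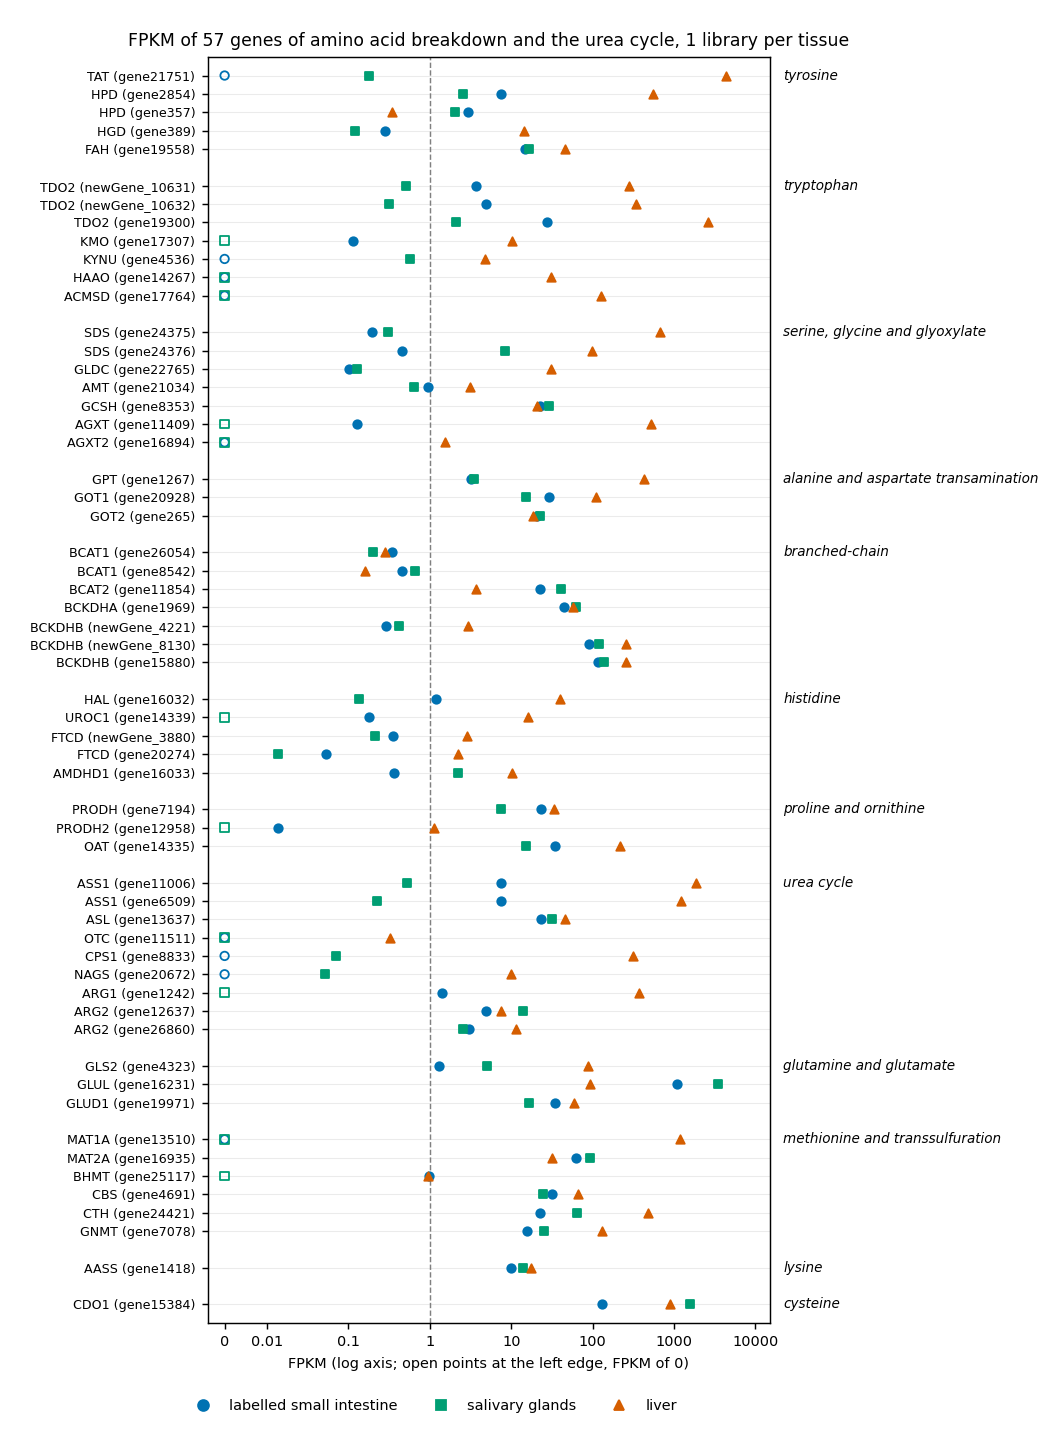
Deposited FPKM (horizontal log axis) of the 57 genes, grouped by amino acid, in the library labelled small intestine (circles), the salivary gland library (squares) and the liver library (triangles). Open symbols mark an FPKM of 0 and the dashed line an FPKM of 1. The liver point is the rightmost for 45 genes, the salivary gland point for 9, among them GLUL and CDO1, and the labelled small intestine point for 3. The same split over all genes is not given here.

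Folds below are ratios of counts scaled by the trimmed mean of M-values (TMM), and a gene was called at 2-fold or more where the pair of libraries held at least 10 counts. A count of 0 was set to a floor of 3 counts in that library, which makes the fold a lower bound. Between the liver and the labelled small intestine, 41 of 56 genes tested were higher in the liver, 5 were lower and 10 were within 2-fold. Of all genes tested, 23.7% were called higher in the liver and 24.5% higher in the labelled small intestine. Between the liver and the salivary glands, 42 of 56 were higher in the liver, 6 were lower and 8 were within 2-fold, beside 24.5% and 23.2% of all genes. The median log2 fold of the amino acid genes was 3.74 and 2.91 in these comparisons, against 0.0557 and 0.0522 over all genes, with lower bounds entered at their value. Both comparisons use the same liver library, and 39 of the genes were higher in the liver than in either of the other libraries. The share of all genes higher in both comparisons is not given here. In bulk tissue, more cells that express a gene and more RNA per cell cannot be told apart.

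Between the salivary glands and the labelled small intestine the split was near even. Of 39 genes tested, 8 were higher in the salivary glands (17.0% of all genes) and 12 in the labelled small intestine (20.5% of all genes). Scaled by library size alone, which moved the median log2 fold of all genes from 0.01 to 0.47, these were 12 and 9, with PRODH, OAT and GLUD1 no longer called. This comparison shares both of its libraries with those above. The 8 were KYNU, SDS (gene24376), AMDHD1, ARG2 (gene12637), GLS2, GLUL, CTH and CDO1. The 12 were HPD (gene2854), the 3 TDO2 genes, HAL, PRODH, OAT, both ASS1 genes, ARG1, GLUD1 and BHMT.

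**Figure D2:**
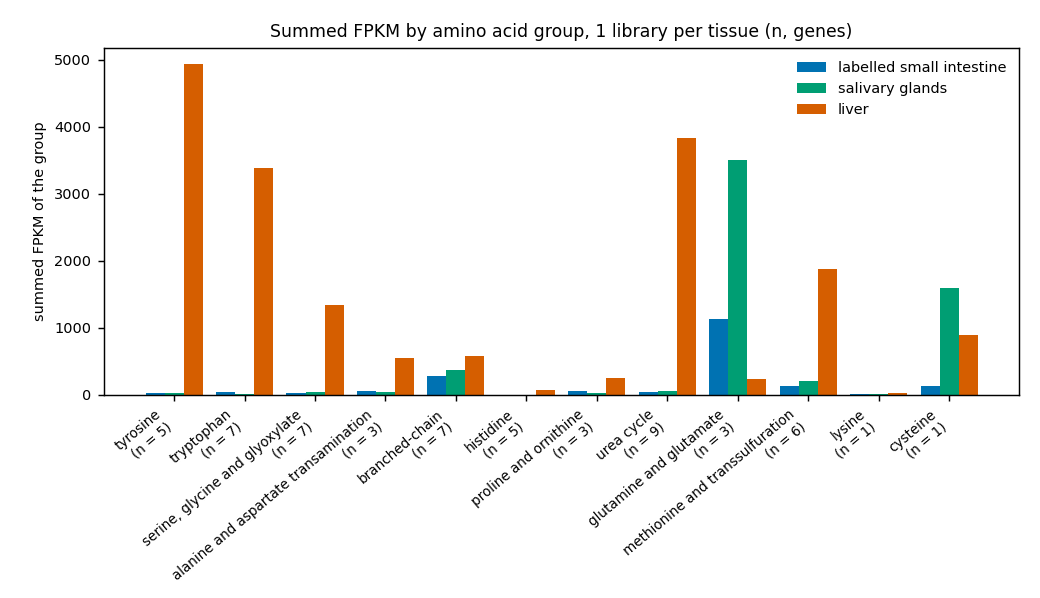
Summed FPKM of the genes of each amino acid group (bars from 0, n is the number of genes) in the 3 libraries. The liver bar is the highest for 10 of the 12 groups, led by tyrosine (4932), the urea cycle (3833) and tryptophan (3390), and the salivary gland bar is the highest for glutamine and glutamate (3500) and for cysteine (1587). In liver counts, methionine and transsulfuration (86272) came after tyrosine (161017), ahead of the urea cycle (75566) and tryptophan (67371). Without 2 short BCKDHB models the branched-chain sum was 64.1 in the liver and 105 in the salivary glands.

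Tyrosine breakdown held the most abundant gene of the list. TAT (gene21751, NW_016550950.1:44140-53121, minus strand), the aminotransferase that starts tyrosine breakdown, had an FPKM of 0 in the labelled small intestine, 0.177 in the salivary glands and 4316 in the liver, where it ranked 15th of all genes. Its counts were 0, 4 and 141500. The liver level was thus at least 27863-fold that of the labelled small intestine and 23495-fold that of the salivary glands (9176 to 86232). HPD (gene2854), the dioxygenase that acts after TAT, had FPKM values of 7.41, 2.59 and 555 in the same order of libraries, which is kept wherever 3 values are given below. Its liver count was 78.0-fold (65.7 to 93.3) and 214-fold (164 to 285) those of the other libraries.

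The later steps of the tyrosine pathway were less abundant. HGD (gene389), which opens the ring of homogentisate, had an FPKM of 14.3 in the liver and below 1 elsewhere. FAH (gene19558), the last enzyme of the pathway, had 46.1 in the liver and 14.7 and 16.7 in the labelled small intestine and the salivary glands, with liver folds of 3.13 (2.78 to 3.54) and 2.78 (2.49 to 3.10). The liver FPKM of TAT was therefore far above that of each enzyme that follows it. A second gene with the HPD symbol, gene357, is named HPD-like in NR and went the other way, with FPKM values of 2.98, 2.03 and 0.343 from 45, 39 and 11 counts.

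Tryptophan breakdown through kynurenine was detected mainly in the liver library. TDO2 (gene19300, NW_016545089.1:266010-283070, plus strand), the dioxygenase that opens the indole ring in the liver, had FPKM values of 27.9 in the labelled small intestine, 2.11 in the salivary glands and 2601 in the liver. Its liver count was 67.4-fold (61.1 to 74.7) and 828-fold (598 to 1182) those of the other libraries, and the labelled small intestine was 12.3-fold (8.71 to 17.8) above the salivary glands. A pair of newly predicted genes with the TDO2 symbol, newGene_10631 and newGene_10632, had 3.65, 0.510 and 281 and 4.90, 0.311 and 338. They overlap by 3562 bases on opposite strands of 1 scaffold, and the reads were aligned without regard to strand, so their fragments cannot be told apart. How fragments were shared among the 3 TDO2 genes was not tested.

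The remaining kynurenine enzymes had lower levels, each with its highest FPKM in the liver. KMO (gene17307), which hydroxylates kynurenine, had a liver FPKM of 10.2, KYNU (gene4536), which cleaves it, 4.80, and HAAO (gene14267), which opens the ring of 3-hydroxyanthranilate, 30.7. ACMSD (gene17764), which turns the pathway's intermediate away from NAD synthesis, had 125 in the liver from 2091 counts. HAAO and ACMSD had 0 counts in both other libraries, which puts the liver at least 222-fold and 412-fold above the labelled small intestine. KYNU had 0 counts in the labelled small intestine and 21 in the salivary glands.

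Among the serine, glycine and glyoxylate genes, 6 of 7 were called higher in the liver in each comparison. SDS (gene24375), the serine dehydratase that yields pyruvate and ammonia, had FPKM values of 0.193, 0.306 and 666 from 3, 6 and 16900 counts. The liver folds were 3328 (1139 to 16139) over the labelled small intestine and 1871 (859 to 5098) over the salivary glands. SDS gene24376 lies 8825 bases from it, is named serine dehydratase-like in NR, and had 0.448, 8.39 and 97.6. It was 20.5-fold (10.2 to 48.1) higher in the salivary glands than in the labelled small intestine.

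AGXT (gene11409), which transaminates glyoxylate with alanine, had FPKM values of 0.129, 0 and 516 from 3, 0 and 21825 counts. Its liver count was 4298-fold (1470 to 20841) that of the labelled small intestine and at least 4832-fold that of the salivary glands. AGXT2 (gene16894), named alanine-glyoxylate aminotransferase 2 in NR, had only 1.53 in the liver and 0 elsewhere. The glycine cleavage system did not behave as 1 unit. GLDC (gene22765), its decarboxylase, had a liver FPKM of 30.8 with 2 and 3 counts in the other libraries, AMT (gene21034), its aminomethyltransferase, had 3.15 in the liver, and GCSH (gene8353), the carrier protein, had 22.3, 28.8 and 21.0, within 2-fold in every comparison.

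The transaminases of alanine and aspartate split by enzyme. GPT (gene1267), which NR names alanine aminotransferase 2, had FPKM values of 3.16, 3.44 and 425 and liver folds of 152 (127 to 184) and 119 (102 to 139). GOT1 (gene20928), the cytosolic aspartate aminotransferase, had 28.9, 15.01 and 111, and the liver was 4.08-fold (3.72 to 4.48) and 7.23-fold (6.46 to 8.11) higher. GOT2 (gene265), the mitochondrial enzyme, had 21.0, 22.8 and 18.7 and was within 2-fold in all comparisons. The cytosolic enzyme thus stood 5.90 times above the mitochondrial one in FPKM in the liver, 1.38 times in the labelled small intestine and 0.657 times in the salivary glands.

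The urea cycle genes were very unequal in the liver library. CPS1 (gene8833), which makes carbamoyl phosphate from ammonia in mitochondria, had FPKM values of 0, 0.0694 and 311 from 0, 4 and 24315 counts, a liver level at least 4788-fold that of the labelled small intestine and 4037-fold (1577 to 14819) that of the salivary glands. NAGS (gene20672), which makes the activator of CPS1, had 10.03 in the liver from 466 counts, 1 count in the salivary glands and 0 in the labelled small intestine. OTC (gene11511), which joins carbamoyl phosphate to ornithine, had an FPKM of 0.322 in the liver from 16 counts and 0 in both other libraries. The liver level of OTC was 1.10 on the counts-per-million scale (CPM, 95% Wilson interval 0.676 to 1.78), and in FPKM it lay 965-fold below CPS1, the step before it. The paper lists ornithine carbamoyltransferase as specifically expressed in a published liver of another, pregnant pangolin. That liver is not among the libraries used here, so the low OTC level holds for this liver library only.

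The symbol ASS1, argininosuccinate synthase, was carried by a pair of genes on different scaffolds, gene11006 (NW_016534761.1:229912-239207) and gene6509 (NW_016531181.1:48-39806), both on the minus strand. Their FPKM values were 7.57, 0.529 and 1856 and 7.41, 0.224 and 1219, with counts of 38, 3 and 11776 and of 76, 3 and 24790. The liver counts were 183-fold (133 to 259) and 193-fold (154 to 245) those of the labelled small intestine, and the salivary glands had 3 counts of each. Whether fragments could be shared between these genes was not tested. The FPKM of gene11006 implies a transcript of 436 bases beside a listed length of 1212, so its FPKM is high for its count. ASL (gene13637), which splits argininosuccinate, had 23.0, 31.4 and 45.9 and was within 2-fold in all comparisons. The FPKM of ASL in the liver likewise implies 2281.5 bases beside a listed 6604. Summed ASS1 was 67.0-fold ASL in FPKM in the liver, where gene6509 alone was 26.6-fold ASL, and 0.0240-fold in the salivary glands. In counts, summed ASS1 was 24-fold ASL in the liver.

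ARG1 (gene1242), the liver arginase that releases urea, had FPKM values of 1.40, 0 and 372 from 33, 0 and 11850 counts. The liver was 212-fold (151 to 308) above the labelled small intestine and at least 2624-fold above the salivary glands. ARG2 (gene12637), the mitochondrial arginase of other tissues, was highest in the salivary glands, with 4.84, 13.9 and 7.55, 2.17-fold (1.91 to 2.46) over the liver and 3.59-fold (2.999 to 4.33) over the labelled small intestine. A further gene with the ARG2 symbol, gene26860, is named agmatinase in NR and had 3.01, 2.57 and 11.5. In the liver ARG1 was 49.3-fold ARG2 gene12637 in FPKM, and 19.5-fold the sum with gene26860. As an FPKM ratio the liver was within 2-fold of the salivary glands for gene12637 (log2 fold of -0.88).

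Glutamine synthesis showed the reverse order of the tissues. GLUL (gene16231, NW_016540173.1:188-8177, plus strand), glutamine synthetase, had FPKM values of 1096 in the labelled small intestine, 3479 in the salivary glands and 93.5 in the liver, from 24919, 91499 and 3527 counts. It ranked 14th of all genes in the salivary glands. Its salivary gland count was 39.1-fold (37.8 to 40.4) that of the liver and 3.27-fold (3.22 to 3.31) that of the labelled small intestine, which was itself 12.0-fold (11.5 to 12.4) above the liver. GLUL alone made up most of the fragments of the list in both libraries outside the liver, 91499 of 120286 in the salivary glands and 24919 of 36441 in the labelled small intestine.

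GLS2 (gene4323), the glutaminase of the liver, had its highest level where GLUL had its lowest, with FPKM values of 1.28, 5.11 and 88.2. Its liver count was 75.4-fold (51.4 to 116) that of the labelled small intestine and 16.8-fold (14.1 to 20.2) that of the salivary glands. The ratio of GLUL to GLS2 in FPKM was 853 in the labelled small intestine, 681 in the salivary glands and 1.06 in the liver. GLUD1 (gene19971), glutamate dehydrogenase, which frees ammonia from glutamate, had 34.3, 16.7 and 59.6 and was higher in the liver than in the salivary glands only, 3.31-fold (2.99 to 3.67).

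**Figure D3:**
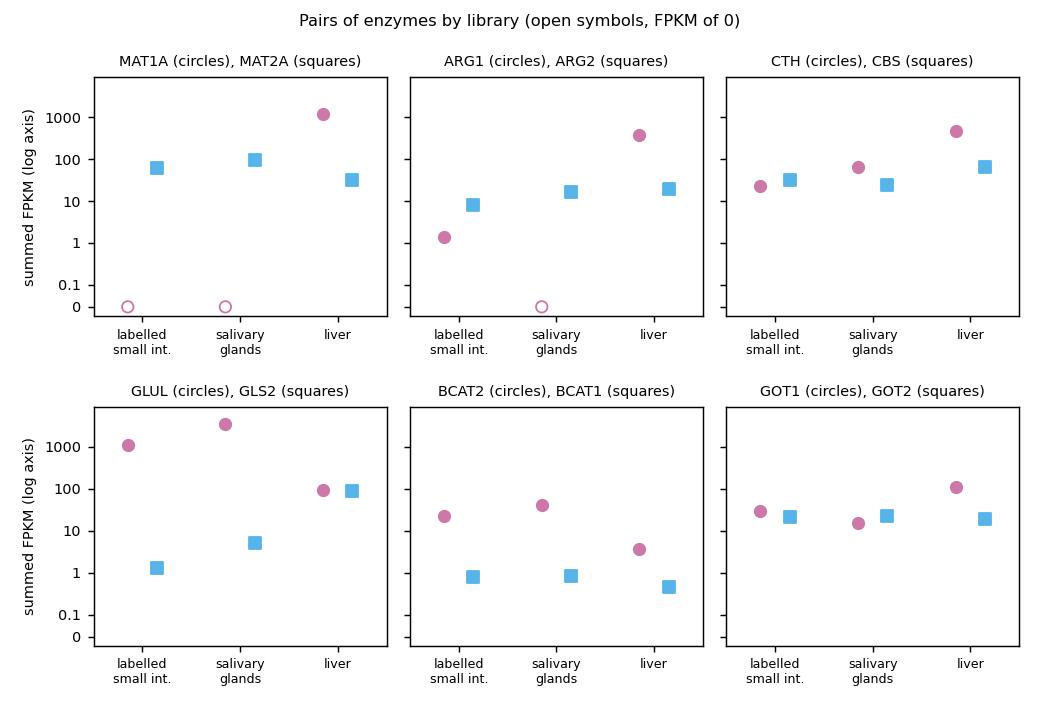
Summed FPKM (vertical log axis) of 6 pairs of enzymes in the 3 libraries, with the enzyme named before the comma as circles and the other as squares. Open symbols mark an FPKM of 0. In the liver MAT1A, ARG1 and CTH stand above MAT2A, ARG2 and CBS (37.1-, 19.5- and 7.19-fold, the ARG2 sum including gene26860, which NR names agmatinase), and GLUL and GLS2 nearly coincide there while GLUL is far above GLS2 in both other libraries.

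Methionine activation was led by a different isozyme in the liver than in the other libraries. MAT1A (gene13510, NW_016537126.1:154181-171677, minus strand), the S-adenosylmethionine synthase of the adult liver, had 0 counts in the labelled small intestine and the salivary glands and 69587 in the liver, an FPKM of 1176, at least 13703-fold and 15406-fold above the others. MAT2A (gene16935), the form of other tissues, had FPKM values of 62.5, 93.6 and 31.7. It was 2.20-fold (2.04 to 2.37) higher in the labelled small intestine and 3.40-fold (3.18 to 3.64) higher in the salivary glands than in the liver. The difference from the labelled small intestine was under 2-fold when scaled by library size (log2 fold of -0.90) or taken as an FPKM ratio (-0.98). GNMT (gene7078), which uses up S-adenosylmethionine by methylating glycine, had 15.6, 25.1 and 130, with liver folds of 9.81 (8.29 to 11.7) and 5.29 (4.69 to 5.99).

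Transsulfuration turns homocysteine into cysteine, and both of its enzymes were higher in the liver. CBS (gene4691), which joins homocysteine to serine, had FPKM values of 31.7, 24.3 and 66.0 and liver folds of 2.38 (2.20 to 2.59) and 2.82 (2.60 to 3.06). CTH (gene24421), which releases cysteine, had 22.9, 64.7 and 475, with liver folds of 18.3 (16.4 to 20.5) and 6.40 (6.01 to 6.83), and was 2.86-fold (2.52 to 3.25) higher in the salivary glands than in the labelled small intestine. BHMT (gene25117), which remethylates homocysteine with betaine, was near the limit of detection, with 0.982, 0 and 0.955 from 23, 0 and 35 counts. The liver level of BHMT was 2.40 CPM (1.73 to 3.34). The paper lists this enzyme too as specifically expressed in the published liver of the pregnant pangolin.

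Cysteine dioxygenase was, beside GLUL, the only gene of the list with an FPKM above 1000 outside the liver. CDO1 (gene15384, NW_016539131.1:106234-122038, minus strand), which oxidises cysteine towards taurine and sulfate, had FPKM values of 129 in the labelled small intestine, 1587 in the salivary glands and 894 in the liver, from 1061, 15242 and 12805 counts. It ranked 29th of all genes in the salivary glands and 63rd in the liver. The salivary glands were 12.8-fold (12.0 to 13.6) above the labelled small intestine and 1.79-fold (1.75 to 1.83) above the liver, which is within the 2-fold limit. Scaled by library size alone, the log2 fold of the liver over the salivary glands was -1.06 in place of -0.84, past that limit. The gene that NR names cysteine sulfinic acid decarboxylase, the enzyme after CDO1 on the way to taurine, is gene1526 (symbol GADL1), with FPKM values of 18.1, 11.2 and 37.1.

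The branched-chain genes differed in order. Their summed FPKM was highest in the liver (579), but 515 of it came from a pair of short BCKDHB models, and without these the sums were 67.9, 105 and 64.1. BCAT2 (gene11854), the mitochondrial transaminase of leucine, isoleucine and valine, had FPKM values of 22.5, 41.2 and 3.70, so the labelled small intestine was 4.71-fold (3.96 to 5.63) and the salivary glands 8.28-fold (7.04 to 9.78) above the liver. BCAT1, the cytosolic form, stayed below 1 in every library in both of its genes, gene26054 (0.345, 0.202 and 0.283) and gene8542 (0.461, 0.651 and 0.161). BCKDHA (gene1969), a subunit of the dehydrogenase that acts next, had 44.3, 62.6 and 57.0 and was within 2-fold in all comparisons. The transaminase therefore differed between libraries where this subunit did not pass 2-fold.

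BCKDHB, the partner of BCKDHA, was carried by 3 gene models. The FPKM values were 117, 140 and 259 for gene15880, 90.6, 120 and 256 for newGene_8130, and 0.293, 0.413 and 2.95 for newGene_4221. The high values rest on few fragments, 423 and 359 in the liver. The models gene15880 and newGene_8130 are listed at 341 and 430 bases and their FPKM implies 112 and 96.2 bases. In counts, gene15880 was 1.98-fold (1.62 to 2.44) and newGene_8130 2.33-fold (1.85 to 2.97) higher in the liver than in the labelled small intestine, on either side of the limit. NR does not name newGene_8130 as this enzyme.

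The 5 histidine genes were called higher in the liver in both comparisons, at modest levels. HAL (gene16032), which removes ammonia from histidine, had FPKM values of 1.20, 0.133 and 39.6, with a liver fold of 33.4 (23.3 to 49.6) over the labelled small intestine. UROC1 (gene14339), the hydratase that follows, had 16.2 in the liver, AMDHD1 (gene16033), the next hydrolase, 10.2, and the FTCD genes, gene20274 and newGene_3880, of the last step, 2.21 and 2.87. HAL and AMDHD1 lie on opposite strands and overlap by 50 bases, so fragments in that overlap cannot be told apart. AMDHD1 was 6.28-fold (3.71 to 11.4) higher in the salivary glands than in the labelled small intestine, where HAL was 8.43-fold (2.97 to 32.9) higher. FTCD stayed below 1 outside the liver in both genes, and NR does not name newGene_3880 as FTCD.

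Of the proline, ornithine and lysine genes, OAT (gene14335), which joins ornithine to glutamate and proline, was the most abundant, with FPKM values of 34.2, 15.1 and 220 and liver folds of 6.23 (5.72 to 6.80) and 13.1 (11.6 to 14.7). PRODH (gene7194), proline dehydrogenase, had 23.4, 7.59 and 33.3. It was 3.59-fold (3.17 to 4.07) higher in the liver than in the salivary glands and within 2-fold of the labelled small intestine. PRODH2 (gene12958), the hydroxyproline dehydrogenase, had 1.12 in the liver from 118 counts, with 1 count in the labelled small intestine and 0 in the salivary glands. AASS (gene1418), which starts lysine breakdown, had 9.99, 14.0 and 17.7 and was within 2-fold in all comparisons.

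**Figure D4:**
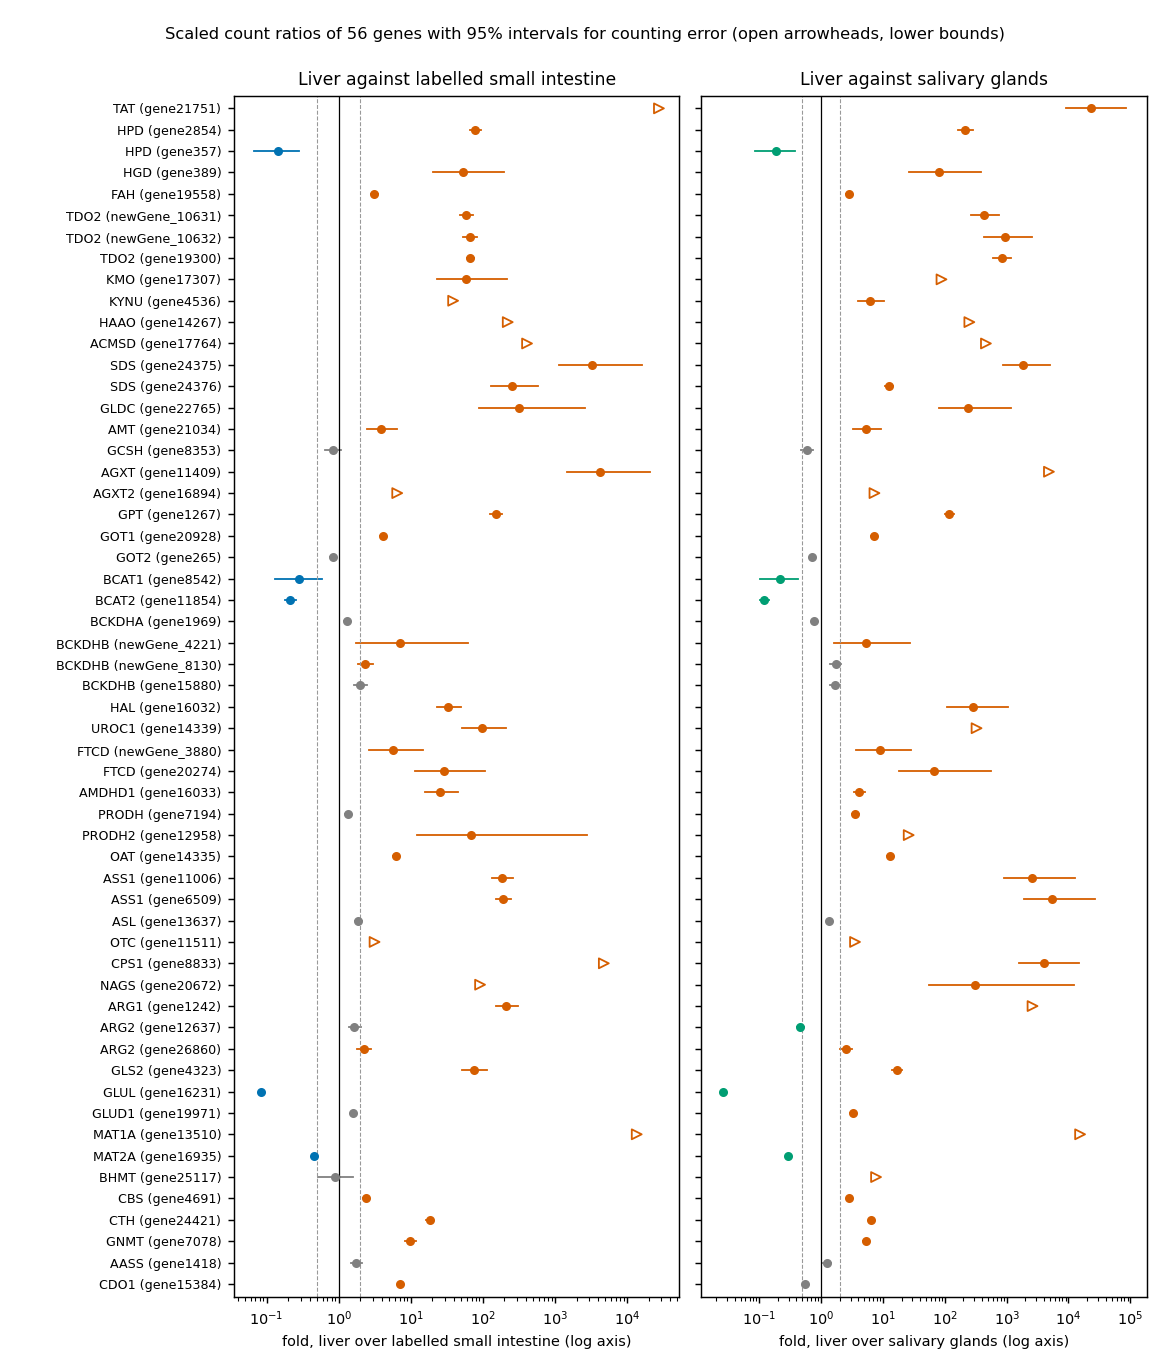
Fold of the liver over the library labelled small intestine (left) and over the salivary gland library (right) for 56 genes, as ratios of TMM-scaled counts on log axes, with 95% exact binomial intervals for counting error. Open arrowheads are lower bounds from a count of 0, dashed lines mark 2-fold, and grey points are within it. Most points lie right of 1, up to TAT, while GLUL, BCAT2, MAT2A, BCAT1 (gene8542) and HPD (gene357) lie left of 0.5 in both panels.

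Lower in the liver than in both other libraries at 2-fold or more were 5 genes, GLUL, BCAT2, MAT2A, BCAT1 (gene8542) and HPD (gene357), the last pair with at most 45 counts in a library. MAT2A lost the call against the labelled small intestine under library size scaling (log2 fold of -0.90) and as an FPKM ratio (-0.98). Within 2-fold of the liver in both comparisons were GCSH, GOT2, BCKDHA, BCKDHB (gene15880), ASL and AASS. Under library size scaling the last of these, ASL and BCKDHB (gene15880) passed 2-fold against the labelled small intestine (log2 folds of 1.06, 1.14 and 1.23), as did BCKDHB (gene15880) as an FPKM ratio (1.14).

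Transcripts of the liver enzymes were also counted in the library labelled small intestine at low levels. Percentages of the liver level here are ratios of CPM, without the TMM scaling used for the folds. In this library they were 1.26% for TDO2 (gene19300), 1.09% for HPD (gene2854), and 0.463% and 0.440% for the ASS1 genes, but 0 for TAT, MAT1A and CPS1. Over the 34 genes with at least 1000 liver counts the median was 1.27% (range 0 to 1013%), and in the salivary glands 0.762% (0 to 4543%). Picking genes by their liver counts favours low percentages, so these medians do not stand for the whole list. Of the hepatocyte markers in the labelled small intestine, ALB was at 20.1% of its liver level, AHSG at 2.84% and HPX at 0.799%, while FGB and TF were at 0 and FGA had 2 counts beside 536135 in the liver. The part of hepatocyte RNA in these low levels was not tested.

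The wider pathways were read with a second list of 70 symbols, of which 52 were found as 68 genes. Of 63 tested, 25 were higher in the liver than in the labelled small intestine, 8 were lower and 30 were within 2-fold, and against the salivary glands 28 of 62 were higher, 5 lower and 29 within. Of all genes 23.7% and 24.5% were called higher in the liver in these comparisons and 24.5% and 23.2% lower. The median log2 folds were 0.561 and 0.808, against 0.0557 and 0.0522 over all genes. Between the salivary glands and the labelled small intestine 6 of 60 were higher in the salivary glands (17.0% of all genes) and 12 in the labelled small intestine (20.5% of all genes), the latter a share near that of all genes. The highest FPKM values were those of MDH2 (gene5471), mitochondrial malate dehydrogenase, at 112, 79.3 and 145, and of MIF (gene26928), a cytokine that also acts as a tautomerase, at 95.8, 106 and 127.

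A small set of these pathway genes peaked outside the liver at 2-fold or more. In the salivary glands these were SLC25A12 (gene6493), the mitochondrial aspartate and glutamate carrier, with FPKM values of 15.7, 42.1 and 4.29 and 10.9-fold (9.14 to 13.0) over the liver, and ALDH18A1 (gene6956), which starts proline synthesis from glutamate, with 9.68, 78.7 and 20.5 and 3.94-fold (3.69 to 4.22). GAMT (gene11087), of creatine synthesis, was 4.10-fold (2.77 to 6.18) over the liver there. In the labelled small intestine IDO1 (gene9860), the tryptophan dioxygenase of tissues outside the liver, had 9.49, 0.518 and 0.502 and was 21.3-fold (11.2 to 45.6) above the liver, opposite to TDO2. MAT2B (gene12738), the regulatory partner of MAT2A, was 2.58-fold (2.10 to 3.18) above the liver there. The 3 MTR gene models of this kind, of methionine synthase, each stood 3.39-fold above the liver with FPKM values of at most 1.38. They rest on at most 12 counts in a library, and the interval of 1 of them (gene16154, 0.907 to 15.4) includes 1. The MTR model with the most counts, gene16106, had 247, 307 and 243 counts and FPKM values of 3.19, 3.34 and 1.99. It was within 2-fold of the liver in both comparisons.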

How the data were processed

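RNA of each tissue was poly(A)-selected and sequenced as paired reads by the authors, who removed adaptor and low-quality reads, aligned with TopHat2 to the *M. javanica* genome without using strand, and predicted new genes with Cufflinks. The genome build is not given in the sources used here. The methods name RSEM for FPKM values compared between tissues, and no tool for the deposited counts. The authors deposited per library a count of fragments per gene, an FPKM and a scaled score; the score was not used for results. Symbols came from the deposited annotation. The members and lists were chosen with earlier results of these data known. Counts were scaled with edgeR 4.0.16 (TMM over 3 libraries). The ratio of 2 libraries was called at 2-fold with at least 10 counts, with a floor of 3 counts for 0 and exact 95% binomial intervals. The fold calculation was tested on simulated data. The study's own rule, a test of reads at q under 0.005 as in DEGseq, compares libraries and served only as an alternative, beside library size, DESeq2 1.42.0 size factors, FPKM ratios, other thresholds and 1 gene per symbol. Values in full were given for members with an FPKM of at least 100 in any library, highest outside the liver, below 1 in the liver, or of symbols with several genes. Of the pathway list, the 2 genes of highest FPKM and those highest outside the liver at 2-fold were named, except some that are not reported here. Python 3.11.15, scipy 1.17.1 and R 4.3.3 were used. Intervals and floors cover counting error only, since PCR copies were not marked.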

Additional observations from a re-analysis of the deposited data

How the results depend on the processing

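No paired analysis was possible because each tissue has 1 library. Under library size scaling, DESeq2 size factors, FPKM ratios, no filter on low counts and the test of reads, each count of called members stayed within 1.5 times its value in the text. At a 4-fold limit, 3 members in place of 5 were higher in the labelled small intestine than in the liver, and 5 in place of 8 were higher in the salivary glands than in the labelled small intestine, as a higher limit passes fewer genes. Keeping 1 gene per symbol, chosen after seeing the data, left 33 members higher in the liver than in the labelled small intestine. No called fold of a single gene changed direction. Library size scaling ended 4 single-gene calls and added 8, FPKM ratios ended 2 and added 2, and DESeq2 size factors changed none. Counts above an FPKM of 1 stayed within 1.5 times at limits of 0.5 and 5 in TPM, and among members whose NR entry names the same enzyme. Depth limits OTC, BHMT, BCAT1 and the fold bounds against counts of 0.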

Other observations

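Some genes carry the enzyme's name in NR but another symbol or none, and so were outside the list. A further glycine decarboxylase gene (gene11540, no symbol) had FPKM values of 0.708 in the labelled small intestine, 0.688 in the salivary glands and 50.5 in the liver, above the 30.8 of the listed GLDC gene in the liver. A newly predicted AASS gene (newGene_4662) had 5.89, 6.64 and 14.8. A gene named cystathionine beta-synthase in NR with the symbol U2AF1 (gene4693) had 59.5, 34.6 and 108.

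The deposited FPKM and counts of the 57 members imply transcript lengths of 0.224 to 1.40 times those listed, with a median of 0.815.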
